A study of Homo sapiens with 6 samples.

Results

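The genes described here form a list named for the multiprotein complex that TAL1, LMO2 and GATA2 form with their partners. They were measured in hemogenic endothelial cells grown with or without alpha lipoic acid. The 10 members, listed by name, were TAL1, LYL1, TCF3, TCF4, TCF12, LMO2, LDB1, GATA2, ZFPM1 and HHEX, and all 10 were found among the 29436 gene symbols of the count table. Hemogenic endothelium is the endothelium from which blood cells bud. It was made by co-culture of H1 cells, a widely used embryonic stem cell line of human origin, with AGM-S3 stromal cells. The treated group (3 libraries) had alpha lipoic acid, an antioxidant and mitochondrial cofactor, in its inducing medium at 100 µg/ml. The untreated group (3 libraries) had no agent. Both groups were sorted on day 8 for surface CD34, KDR and CD144 without CD43, and each library came from an aliquot of 1000 cells whose polyA cDNA was amplified. The labels do not say whether replicates were separate cultures. The p values therefore set the difference between groups against a spread among libraries of a group that may be only technical. All results belong to 1 cell line. The comparison asks how lipoic acid alters these cells before blood is made.

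In this complex a tissue-restricted basic helix-loop-helix (bHLH) protein, TAL1 or its relative LYL1, pairs with a widely expressed E protein (TCF3, TCF4 or TCF12) and binds E-box DNA. LMO2, which does not bind DNA itself, bridges that pair to LDB1 and to a GATA factor, so that E-box and GATA sites are occupied together. The complex is known as a regulator of blood and endothelial genes, and TAL1, LMO2 and GATA2 are each needed for normal blood formation in the embryo. ZFPM1 (FOG1) is a cofactor that binds GATA factors. HHEX, listed with these genes but not a part of the complex as described here, is a homeobox factor of early endothelium, blood progenitors and foregut endoderm.

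Promoters are shown for the bHLH relatives TAL1 and LYL1, for the E protein gene TCF3 and for the GATA2 start nearer to the coding region, because they show where letters that the complex reads occur before starts of genes in the comparison. TAL1 and GATA2 have 2 windows each, and the window with matches was chosen for printing after the search. The sequences are the 250 bases before the annotated start, from RefSeq on GRCh38.p14, 5′ to 3′ on the gene's strand. Capitals mark E-boxes (CANNTG), the GATA site AGATAA, the ETS core CCGGAA and the composite CTGNNNNNNNNNGATA, each searched on both strands.
TAL1: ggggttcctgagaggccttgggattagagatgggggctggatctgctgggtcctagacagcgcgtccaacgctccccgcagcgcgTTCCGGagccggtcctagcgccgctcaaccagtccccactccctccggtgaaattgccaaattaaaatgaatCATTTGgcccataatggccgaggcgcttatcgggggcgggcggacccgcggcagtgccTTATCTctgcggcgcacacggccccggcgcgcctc
LYL1: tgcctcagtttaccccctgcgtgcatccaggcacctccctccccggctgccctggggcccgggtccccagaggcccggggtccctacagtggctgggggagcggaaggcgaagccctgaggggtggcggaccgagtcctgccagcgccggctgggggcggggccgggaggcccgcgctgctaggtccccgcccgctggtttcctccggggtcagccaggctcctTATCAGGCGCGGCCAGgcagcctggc
TCF3: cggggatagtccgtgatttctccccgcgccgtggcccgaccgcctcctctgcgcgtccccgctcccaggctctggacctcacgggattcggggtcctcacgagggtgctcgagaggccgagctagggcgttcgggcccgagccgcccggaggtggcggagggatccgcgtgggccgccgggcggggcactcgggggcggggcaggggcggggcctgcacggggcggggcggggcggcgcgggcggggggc
GATA2: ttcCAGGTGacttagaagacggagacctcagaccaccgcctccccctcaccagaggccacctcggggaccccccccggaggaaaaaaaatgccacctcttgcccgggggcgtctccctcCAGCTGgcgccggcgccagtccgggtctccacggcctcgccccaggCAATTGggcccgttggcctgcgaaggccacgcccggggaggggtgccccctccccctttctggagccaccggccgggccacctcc

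The printed TAL1 window (chr1:47232336-47232585, minus strand) held 1 E-box, 1 GATA site and 1 ETS core. That of LYL1 (chr19:13102859-13103108, minus strand) held none of these but 1 composite with 9 bases between its parts. The TCF3 window was chr19:1652616-1652865, minus strand. The printed GATA2 window (chr3:128488531-128488780, minus strand) held 3 E-boxes. The other TAL1 window (chr1:47231716-47231965) and the other GATA2 window (chr3:128493202-128493451) held no match, as did that of TCF3. Among 35116 promoter windows of the same length, 61.8% held an E-box, 9.17% the GATA site, 14.5% the ETS core, and 1.63% the composite. The composite with 8 bases between its parts, CTGNNNNNNNNGATA, was also in 1.63% and in none of the member windows, which numbered 24 over 9 of the members. LMO2 was not among them. A match is a string of letters and not a known binding site.

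Total counts ran from 30041494 to 41351951 per library. Even numbers made up 99.1% to 99.3% of the nonzero counts in each lipoic acid library and in untreated replicate 1, against 52.0% in untreated replicates 2 and 3, so a fit without untreated replicate 1 cannot tell this counting difference from treatment. Of 13780 genes that passed the filter on low counts, 47.4% were called, meaning a Benjamini-Hochberg adjusted p under 0.05 in the edgeR quasi-likelihood test, with 24.2% higher and 23.3% lower. Markers outside the sorted identity moved as well. Among the 10 markers of endoderm and liver that were tested 9 rose and 0 fell, their summed level being 29.1 to 41.6 CPM (counts scaled to a common library size) in untreated and 152 to 228 CPM in lipoic acid libraries, and of 6 tested epithelial markers 5 rose and 0 fell (226 to 249 against 409 to 474 CPM). Most of the epithelial sum was KRT8 (means of 108 and 246 CPM) and KRT18 (110 and 135 CPM). EPCAM was not called (6.32 and 5.45 CPM), and GRHL2 of that list had no count in any library. Of 12 endothelial markers 8 fell and 1 rose (6320 to 6639 against 4827 to 5021 CPM). Of 13 tested mesenchymal markers 6 fell and 2 rose (2041 to 2677 against 1600 to 2150 CPM), and of 6 tested megakaryocytic markers 5 rose and 0 fell (13.5 to 14.7 against 44.7 to 54.1 CPM). Most of the megakaryocytic sum was SELP (means of 5.25 and 21.3 CPM) and RAB27B (7.39 and 20.9 CPM). GP1BB, PPBP and TUBB1 of that list were at 0 counts in all libraries. Of 6 tested blood and myeloid markers 3 fell and 0 rose (383 to 417 against 308 to 339 CPM), with PTPRC, SPN, MPO, AZU1 and SPI1 at 0 counts in all libraries. Of 4 tested erythroid markers 1 rose and 1 fell (78.3 to 90.7 against 74.4 to 97.6 CPM), with HBE1, HBG1, HBA1, HBA2, SLC4A1 and AHSP at 0. Of 4 tested pluripotency markers 2 rose and 1 fell (80.8 to 85.8 against 89.8 to 91.9 CPM), with POU5F1 and SOX2 at 0, and all 5 mast cell markers were at 0. Of the gate genes KDR rose, CD34 and CDH5 (CD144) fell (6370 to 6534 against 6040 to 6306 CPM in sum), and SPN (CD43) had no count. Over the other settings the erythroid calls ran from 0 to 3 higher and 0 to 2 lower, the megakaryocytic rises numbered 3 in libraries of even counts, and the mesenchymal rises 1 without untreated replicate 1 or 3 or lipoic acid replicate 1. In bulk samples fewer cells of a type and less RNA per cell cannot be told apart.

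Most members of the list differed little between the groups, and those that passed the test were lower with lipoic acid. Of the 10 members 9 passed the filter, 3 of them fell (LMO2, LYL1 and TCF3), 0 rose and 6 were not called, beside 47.4% called over all genes tested. The number that fell was 1, LMO2 alone, without untreated replicate 1 and likewise without lipoic acid replicate 3. The count of 0 rises also held at an unadjusted p under 0.05, in DESeq2 and in limma voom. The groups did not overlap for 3 of the 9, all 3 lower with lipoic acid, against 59.1% of all genes tested (30.4% higher and 28.8% lower). The median size of the log2 fold change, its sign left aside, was 0.07 over the 9 and 0.35 over all genes tested, and the signed medians were -0.06 and -0.01.

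**Figure D1:**
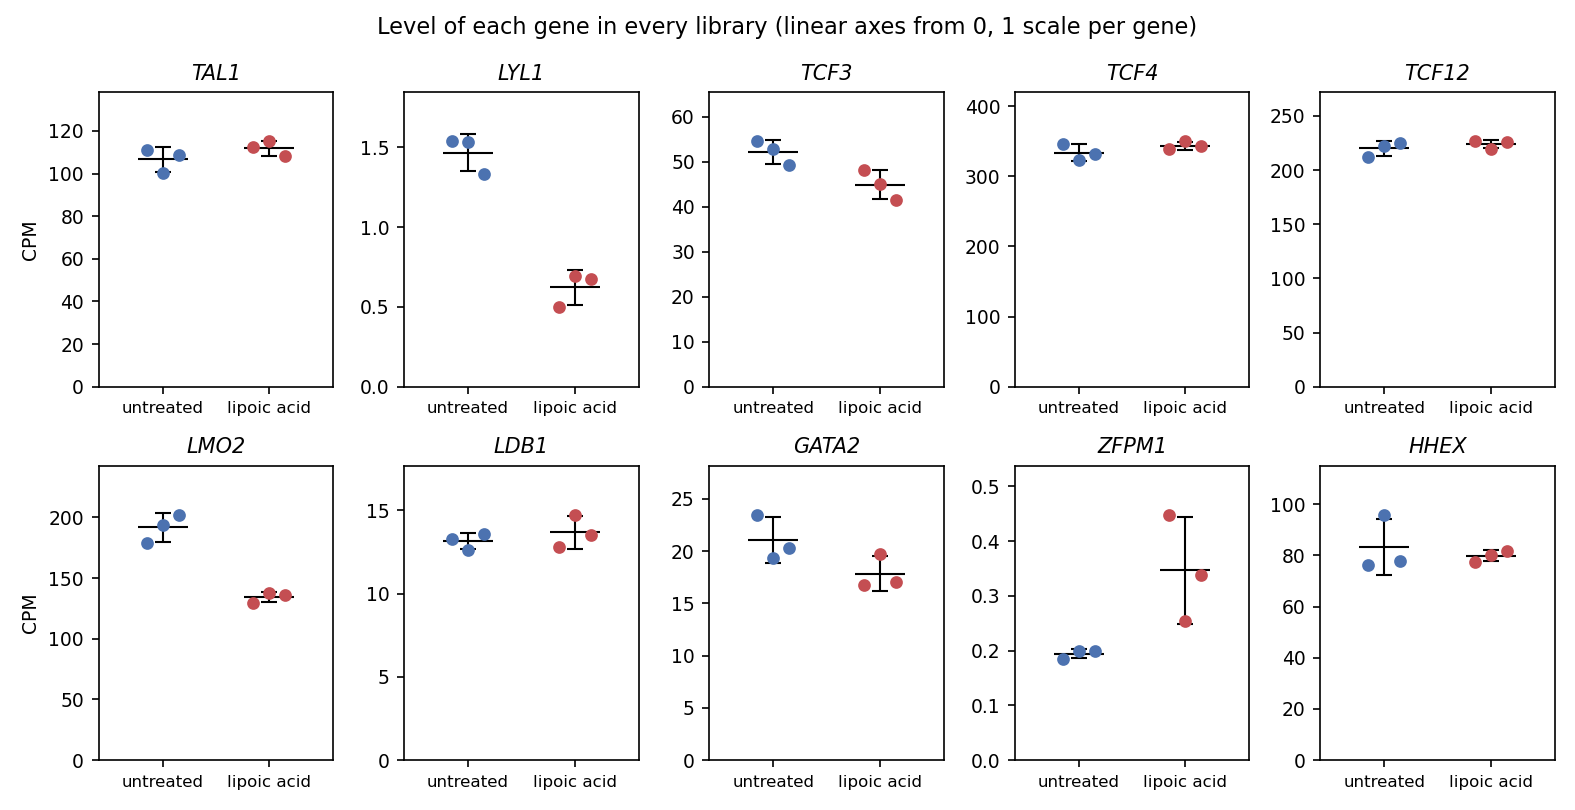
Level of each of the 10 genes in CPM (counts scaled to library size) on linear axes that start at 0, with 1 scale per gene. Points are libraries (3 untreated, 3 lipoic acid), long bars are group means and error bars the SD. The groups are apart for LMO2, LYL1 and TCF3, lower with lipoic acid, and for ZFPM1, which had at most 18 counts in a library.

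TAL1 is the bHLH factor that specifies blood from mesoderm and lies on chromosome 1 (47216290 to 47232220, minus strand, GRCh38). It measured 111, 100.1 and 109 CPM in untreated replicates 1 to 3 and 112, 115 and 108 CPM in lipoic acid replicates 1 to 3. These ranges overlapped, and the fitted ratio of lipoic acid to untreated lay between 0.950 and 1.16 with 95% confidence (log2 fold change 0.07 ± 0.06 SE, adjusted p = 0.403). An antisense gene not in the count table covers 0.148 of the exonic length of TAL1, and the strand setting of the counting was not given in the sources used here.

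LYL1 (chromosome 19, 13099033 to 13103161, minus strand), the relative that can stand in for TAL1 in some blood cells, was scarce. It had 1.54, 1.53 and 1.33 CPM without lipoic acid and 0.498, 0.696 and 0.677 CPM with it, from 50, 46 and 40 counts against 20, 22 and 28. All lipoic acid libraries lay below all untreated ones. LYL1 fell 2.35-fold (log2 fold change -1.23 ± 0.38 SE, edgeR adjusted p = 0.0231), with a 95% interval of the ratio from 0.236 to 0.769. Its call was lost in 7 of 17 other settings (adjusted p from 0.0123 to 0.112 over the 17), among them the 4 libraries of even counts alone (0.112) and the fits without untreated replicate 1 (0.0621) or 3 (0.0546) or lipoic acid replicate 1 (0.0873) or 3 (0.0679). Its direction was lower in all 17.

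Of the E protein genes TCF4 and TCF12 were not called. TCF4 (chromosome 18, 55222331 to 55664787, minus strand), also called E2-2 and not to be confused with the Wnt effector TCF7L2, measured 346, 323 and 331 CPM without and 339, 350.0 and 342 CPM with lipoic acid. TCF12 (HEB; chromosome 15, 56918623 to 57299281, plus strand) measured 212, 223 and 225 CPM against 227, 219.7 and 226 CPM. Both genes overlapped between groups, with 95% intervals of the ratio from 0.951 to 1.12 for TCF4 (adjusted p = 0.520) and from 0.938 to 1.11 for TCF12 (adjusted p = 0.707).

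TCF3 (chromosome 19, 1609290 to 1652605, minus strand) encodes the E12 and E47 splice forms, which a count per gene does not separate. It had 54.6, 52.7 and 49.2 CPM in untreated libraries and 48.1, 44.9 and 41.6 CPM with lipoic acid. The groups did not overlap but lay close together, the lowest untreated library standing just above the highest treated one. TCF3 fell 1.16-fold (log2 fold change -0.22 ± 0.08 SE, adjusted p = 0.0428). That call was lost in 4 of 17 other settings, without untreated replicate 1 (adjusted p = 0.129), without lipoic acid replicates 2 (0.109) or 3 (0.204), and with the trend of each library with GC content and length removed, where the log2 fold change of TCF3 was -0.04 (adjusted p = 0.616).

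The E protein transcripts differ in base composition, and so did the effect of that correction on them. Annotated transcripts of TCF3 have 62.2% GC, those of TCF4 42.8% and those of TCF12 43.8%. With the trend removed TCF4 had a log2 fold change of -0.16 and was called lower (adjusted p = 0.0419), and TCF12 had -0.08 (0.225), so the small differences among the E proteins depend on this choice. For LMO2 the same correction gave -0.42 (adjusted p = 0.00110) and for LYL1 -0.89 (0.0768).

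LMO2 was the member with the clearest difference. The LIM-only protein that it encodes is the bridge of the complex, and the gene lies on chromosome 11 (33858576 to 33892289, minus strand). Untreated libraries had 179, 194 and 202 CPM and lipoic acid libraries 129.6, 138 and 136 CPM, so the highest treated library stayed well below the lowest untreated one. LMO2 fell 1.43-fold from 192 ± 11.8 to 134 ± 4.30 CPM (SD, n = 3 each; log2 fold change -0.51 ± 0.06 SE; edgeR adjusted p = 0.000169). LMO2 was called lower in all 17 other settings, with log2 fold changes from -0.55 to -0.41 and, in the respective tests, adjusted p from 1.1e-11 to 0.00219. The same libraries had lower endothelial markers, as given above, and the part of those cells in the lower LMO2 level was not tested.

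LDB1 (chromosome 10, 102107560 to 102120453, minus strand), the adaptor that joins LMO2-bound factors to one another and links distant enhancers, was not called. It measured 13.3, 12.6 and 13.6 CPM without and 12.8, 14.7 and 13.5 CPM with lipoic acid. The groups overlapped, and the 95% interval of the ratio ran from 0.870 to 1.25 (adjusted p = 0.709), wider than for TAL1, TCF4 or TCF12. With the GC and length trend removed the log2 fold change of LDB1 was 0.27 (adjusted p = 0.0897).

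GATA2 (chromosome 3, 128479427 to 128493185, minus strand), the zinc finger factor of hemogenic endothelium and blood stem cells, measured 23.5, 19.4 and 20.3 CPM in untreated and 16.8, 19.7 and 17.0 CPM in lipoic acid libraries. Lipoic acid replicate 2 lay inside the untreated range. GATA2 was not called (log2 fold change -0.24 ± 0.11 SE, adjusted p = 0.105, ratio interval 0.710 to 1.01). It was called lower in the 4 libraries of even counts alone (-0.40, adjusted p = 0.0352) and without untreated replicate 2 (-0.30, 0.0426), while with the GC and length trend removed its log2 fold change was -0.02 (0.904). The antisense transcript GATA2-AS1, which overlaps the GATA2 span on the other strand and shares no exonic base with it, had 54, 43 and 60 counts without and 38, 32 and 40 with lipoic acid and was not called either (log2 fold change -0.80, adjusted p = 0.0783).

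ZFPM1 (chromosome 16, 88453317 to 88537016, plus strand) was near the limit of detection and did not pass the filter. It had 6 counts in each untreated library and 18, 8 and 14 counts in the lipoic acid libraries. With counts halved in the libraries of even counts these were 15 and 20 counts per group, or 0.195 CPM (95% Poisson interval 0.109 to 0.322) and 0.354 CPM (0.217 to 0.547). The intervals overlap and cover counting error alone. Without the filter the log2 fold change of ZFPM1 was 0.83 (adjusted p = 0.417).

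HHEX (chromosome 10, 92689951 to 92695646, plus strand) measured 76.2, 96.0 and 77.9 CPM without and 77.6, 80.1 and 81.8 CPM with lipoic acid. Untreated replicate 2 was the highest, and the treated libraries lay within the untreated range. HHEX was not called (ratio interval 0.835 to 1.101, adjusted p = 0.599), and its sign turned positive without untreated replicate 2 (log2 fold change 0.05). HHEX is also a gene of foregut endoderm, and most tested markers of endoderm and liver rose in the same treated libraries. AFP, the fetal serum protein, was 5.85 ± 1.47 and 60.1 ± 15.1 CPM, and TTR, a thyroid hormone carrier, 8.27 ± 2.26 and 50.5 ± 13.0 CPM. APOB, a lipoprotein gene, rose from 2.08 ± 0.593 to 15.5 ± 3.11 CPM. HNF4A of the same list was not called (edgeR adjusted p = 0.235), and ALB, SERPINA1 and AHSG did not pass the filter. The part of endoderm or liver cells in the HHEX level was not tested.

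**Figure D2:**
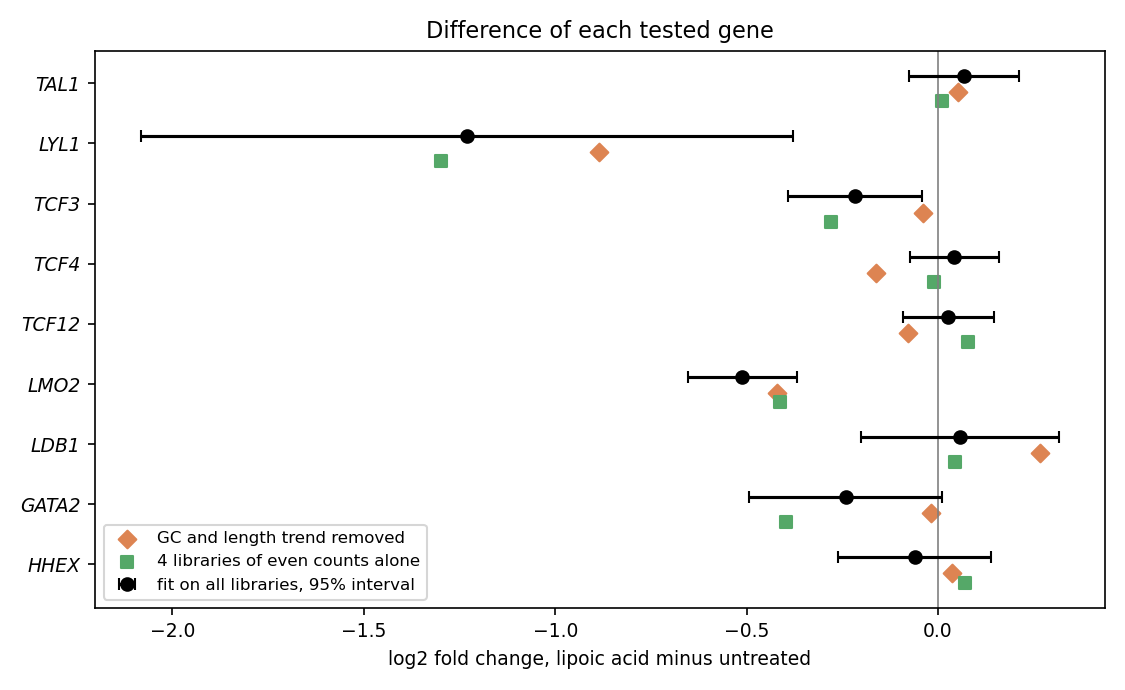
Fitted log2 fold change of the 9 tested genes, lipoic acid minus untreated, on the horizontal axis. Circles with bars are the edgeR fit on 6 libraries with its 95% interval, diamonds the fit with the GC content and length trend of each library removed, and squares the fit on the 4 libraries of even counts. LMO2 lies between -0.51 and -0.41 in these fits, while TCF3 moves from -0.22 to -0.04 once the trend is removed.

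Levels were also set between the genes, as CPM per kilobase of annotated exon in the untreated group. LMO2 was highest at 61.6 ± 3.78, followed by HHEX (33.0 ± 4.35), TCF12 (23.3 ± 0.722), TAL1 (18.7 ± 1.01), TCF4 (11.99 ± 0.429), TCF3 (8.58 ± 0.445), GATA2 (4.72 ± 0.484), LDB1 (4.71 ± 0.177), LYL1 (0.470 ± 0.0378) and ZFPM1 (0.0318 ± 0.00141) CPM per kilobase. Neighbours in this order did not overlap, except GATA2 and LDB1. LMO2 was thus the most abundant transcript of the listed members per length and TAL1 the main one of the 2 bHLH relatives. With lipoic acid the order was the same but for GATA2 (4.003 ± 0.369) and LDB1 (4.91 ± 0.352), which changed places. The place of TCF4 depends on the length: per kilobase of its longest transcript (8.34 kb rather than 27.8 kb of all exons) it stood at 39.98 ± 1.43, next after HHEX.

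Ratios of counts inside a library, which do not depend on scaling between libraries, separated the groups for all 6 pairs computed. LYL1, TCF3, LMO2 and ZFPM1, each part of such a ratio, already separated the groups alone, as did 59.1% of all genes tested. The share of separated ratios among other gene pairs was not computed. There were 0.0139, 0.0153 and 0.0122 LYL1 counts per TAL1 count in untreated libraries and 0.00443, 0.00604 and 0.00627 in lipoic acid libraries, a 2.49-fold lower ratio. LMO2 to LDB1 was 14.6 ± 0.990 in untreated and 9.84 ± 0.436 in lipoic acid libraries (SD, n = 3 each), 1.48-fold lower. GATA2 to ZFPM1 was 109 ± 16.2 and 55.2 ± 20.7, on at most 18 ZFPM1 counts a library. Each of the 6 differences had an exact two-sided permutation p of 0.1 (also 0.1 adjusted over the 6), the smallest that 3 against 3 libraries can give.

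Among the E proteins TCF4 to TCF3 was 6.40 ± 0.304 in untreated and 7.69 ± 0.603 in lipoic acid libraries, and TCF12 to TCF3 was 4.23 ± 0.343 and 5.01 ± 0.378. Both ratios turned the other way with the GC and length trend removed (log2 differences of -0.12 and -0.04, against 0.26 and 0.25 without that correction). The summed ID transcripts, whose proteins bind E proteins and keep them off DNA, stood at 0.824, 1.02 and 0.791 per E protein count in untreated libraries and at 0.729, 0.752 and 0.698 in lipoic acid libraries. The latter were lower throughout, by 1.203-fold on average (log2 difference -0.27, but -0.15 without untreated replicate 2).

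**Figure D3:**
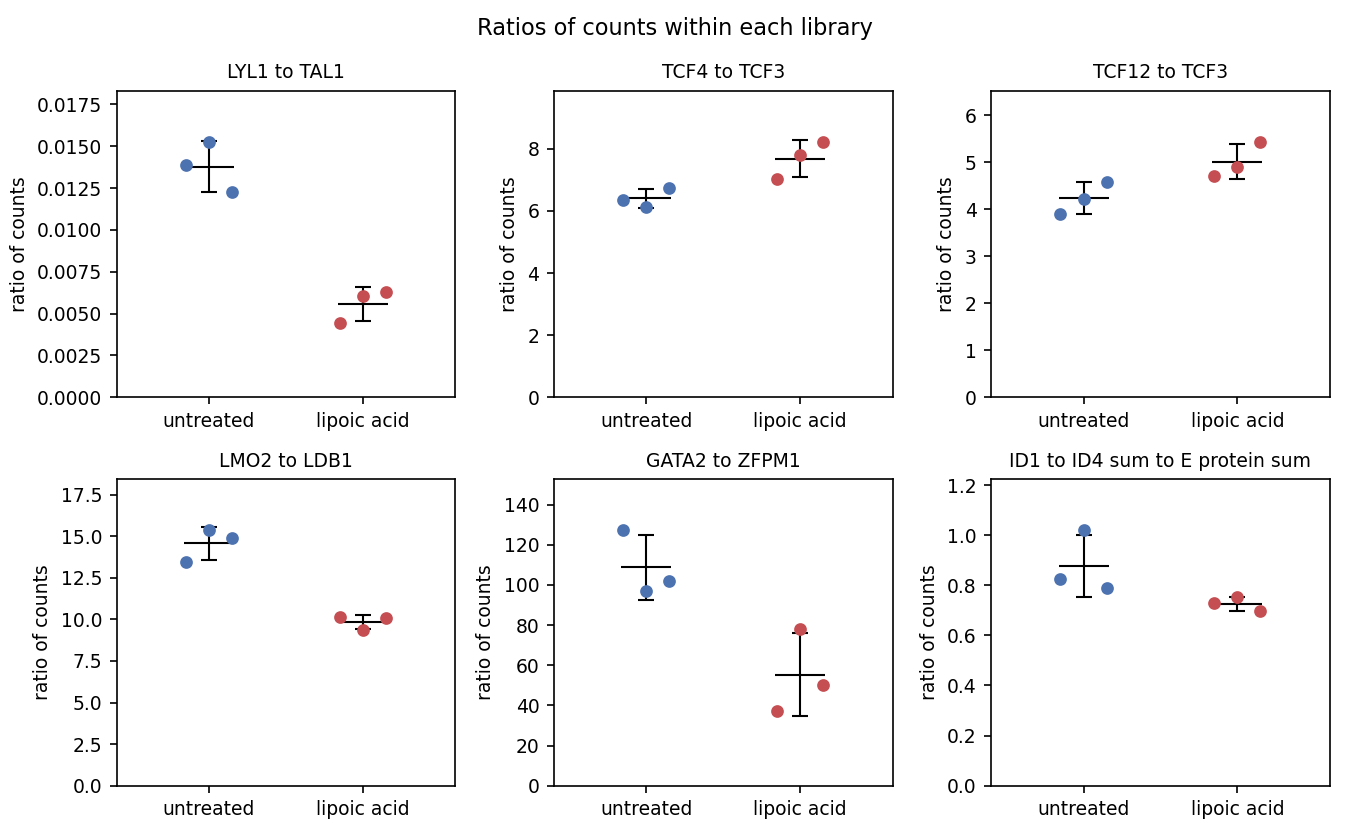
Ratio of counts of the named genes inside each library, on linear axes from 0. Points are libraries, long bars group means and error bars the SD (n = 3 each). The groups are apart in each of the 6 panels, most widely for LYL1 to TAL1 (0.0138 against 0.00558).

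The 4 ID genes did not move as 1 group. ID1 fell from 119 ± 8.62 to 68.1 ± 3.28 CPM (1.75-fold, adjusted p = 2.59e-05), while ID3 had 368 and 316 CPM on average (325 to 428 and 305 to 327 CPM) and was not called (adjusted p = 0.0707). ID2 rose from 44.3 ± 7.41 to 58.2 ± 4.84 CPM (adjusted p = 0.0166), a call lost without untreated replicate 3 (0.0661) and without lipoic acid replicate 2 (0.0665). ID4 rose from 0.881 ± 0.245 to 2.75 ± 0.777 CPM (3.10-fold, adjusted p = 0.00469). ID3 was called lower by DESeq2 (0.0441), with the replicate block (0.0319) and without untreated replicate 3 (0.0267).

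Partners of LMO2 and LDB1 were mostly not called in the 6 libraries. Of 8 such genes 6 were tested, 1 rose and 1 fell, beside 24.2% and 23.3% of all genes tested, with a median log2 fold change of -0.03. The counts were 2 and 2 without untreated replicate 2, with the replicate block and in libraries of even counts, 1 and 2 without untreated replicate 3, and 0 and 3 with the GC and length trend removed. SSBP4, one of the single-stranded DNA-binding proteins that stabilise LDB1, fell 2.21-fold from 13.6 ± 2.34 to 6.15 ± 0.930 CPM (adjusted p = 0.000583). SSBP2 (131 ± 8.10 and 145 ± 3.27 CPM) and SSBP3 (129 ± 13.0 and 114 ± 1.05 CPM) were not called. SSBP2 was called higher with the replicate block (adjusted p = 0.0479), in libraries of even counts (0.0482) and without untreated replicate 2 (0.0111). SSBP3 was called lower in libraries of even counts (0.00463), with the GC and length trend removed (0.0466) and without untreated replicate 3 (0.0307). RLIM, a ubiquitin ligase for LIM cofactors, rose from 71.2 ± 5.59 to 89.98 ± 3.96 CPM (adjusted p = 0.00420), a call lost with the GC and length trend removed (0.0801). LDB2, the paralog of LDB1, stood at 511 ± 14.4 and 469 ± 10.8 CPM (adjusted p = 0.0650) and was called lower with the replicate block (0.0470), with the GC and length trend removed (0.00172) and without untreated replicate 2 (0.0392).

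Other GATA factors divided. Of 6 genes of the GATA and FOG families besides the members, 5 were tested, 1 rose and 2 fell, beside 24.2% and 23.3% of all genes tested. GATA3, a factor of lymphoid and other lineages, fell from 60.8 ± 5.21 to 41.3 ± 0.628 CPM and GATA6, a mesendoderm and heart factor, from 24.2 ± 1.85 to 16.9 ± 1.196 CPM (1.43-fold, adjusted p = 0.00241). GATA4, of heart and endoderm, rose from 52.2 ± 1.36 to 65.5 ± 2.32 CPM (adjusted p = 0.00248). GATA5 (2.84 ± 0.490 and 3.39 ± 0.838 CPM) and ZFPM2, the relative of ZFPM1 (38.6 ± 2.56 and 42.8 ± 4.42 CPM), were not called. GATA1, the erythroid and megakaryocytic factor, had 0 counts in each untreated library and 12, 4 and 8 with lipoic acid, and did not pass the filter. Fitted without the filter GATA1 was called higher (edgeR adjusted p = 0.0254). That call rests on at most 12 counts a library, all of them in libraries of even counts, where the number of separate reads may be smaller.

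FLI1 and ERG are ETS factors that share binding sites with the complex in blood stem cells. FLI1 had 136 ± 8.56 and 133 ± 7.16 CPM and was not called (adjusted p = 0.692), and ERG fell 1.12-fold from 354 ± 6.24 to 316 ± 5.06 CPM (adjusted p = 0.0213, not called without untreated replicate 1 (0.0593) or lipoic acid replicates 1 (0.0657), 2 (0.0915) or 3 (0.0924)). RUNX1, the third of these partners, had 3.20, 2.43 and 2.26 CPM without and 14.1, 15.001 and 14.1 CPM with lipoic acid. RUNX1 rose 5.46-fold (adjusted p = 5.72e-06), and its groups lay far apart.

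Of 12 corepressors and coactivators, all tested, 3 rose and 2 fell, with a median log2 fold change of 0.07. Over all genes tested 24.2% rose and 23.3% fell, so these counts do not set the list apart. GFI1B, a repressor of erythroid and megakaryocytic cells, had 6, 0 and 4 counts without and 112, 92 and 92 counts with lipoic acid (adjusted p = 0.000302). Its log2 fold change was 4.57, but 5.25 without untreated replicate 1 and 3.81 in the 4 libraries of even counts. RUNX1T1, a corepressor of the ETO family, fell 2.54-fold from 19.4 ± 1.78 to 7.60 ± 1.78 CPM (adjusted p = 0.000206). CBFA2T3 (ETO2), its relative in the erythroid form of the complex, was at 0.370 ± 0.343 and 0.334 ± 0.299 CPM. The histone demethylase gene KDM1A rose 1.18-fold and the acetyltransferase gene CREBBP fell 1.27-fold. The remaining rise was that of KAT2B, another acetyltransferase gene (7.69 ± 1.202 and 11.2 ± 0.178 CPM), which was not called without untreated replicate 3 or lipoic acid replicate 3. Of 11 other tissue bHLH genes 6 were tested and 1 rose, TCF21, with 2 counts over the untreated and 28 over the lipoic acid libraries, even counts halved (ratio 19.1, 95% counting interval 4.81 to 165). That call was lost on libraries of even counts alone (adjusted p = 0.193) and without untreated replicate 3 (0.0570) or lipoic acid replicates 1 (0.0531) or 3 (0.0546).

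Genes known as targets of these factors moved in both directions. Of 15 tested endothelial targets 4 rose and 6 fell, beside 24.2% and 23.3% of all genes tested, with a median log2 fold change of -0.17. EDN1, which encodes endothelin-1 and is a known GATA2 target, rose 2.28-fold from 74.4 ± 4.76 to 169 ± 1.38 CPM. ANGPT2, the angiopoietin gene bound by the LMO2 complex, rose 1.14-fold from 1975 ± 73.1 to 2258 ± 82.0 CPM (adjusted p = 0.00838, but 0.243 with the GC and length trend removed). ESAM and NRP1, an adhesion molecule and a semaphorin receptor of endothelium, fell 1.599-fold and 1.36-fold, and PECAM1 fell from 2308 ± 36.0 to 1821 ± 3.40 CPM. These falls stand beside those of the endothelial markers given above, with which this list shares genes.

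Of 10 tested blood targets 6 rose and 1 fell, with a median log2 fold change of 1.43 against -0.01 over all genes tested, of which 24.2% rose and 23.3% fell. KIT, the stem cell factor receptor, rose 1.97-fold from 33.5 ± 4.24 to 66.2 ± 2.98 CPM. NFE2, a factor of erythroid and megakaryocytic cells, had no count in untreated libraries and 60, 98 and 68 counts with lipoic acid, at least 51.4-fold higher against a floor of 3 counts over the untreated group with even counts halved. RUNX1 and GFI1B belong to this list too, and CD34 fell 1.78-fold. ITGA2B, an integrin gene of megakaryocytes, rose but lost its call where only libraries of even counts were fitted (adjusted p of 0.138) and also without untreated replicate 3 (0.124) or lipoic acid replicates 1 (0.1002), 2 (0.0746) or 3 (0.111). The erythroid targets KLF1, SLC4A1 and EPB42 were too low to be tested. In the same libraries 5 of the 6 tested megakaryocytic markers rose, while others of that list had no count, and the part of such cells in these values was not tested.

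**Figure D4:**
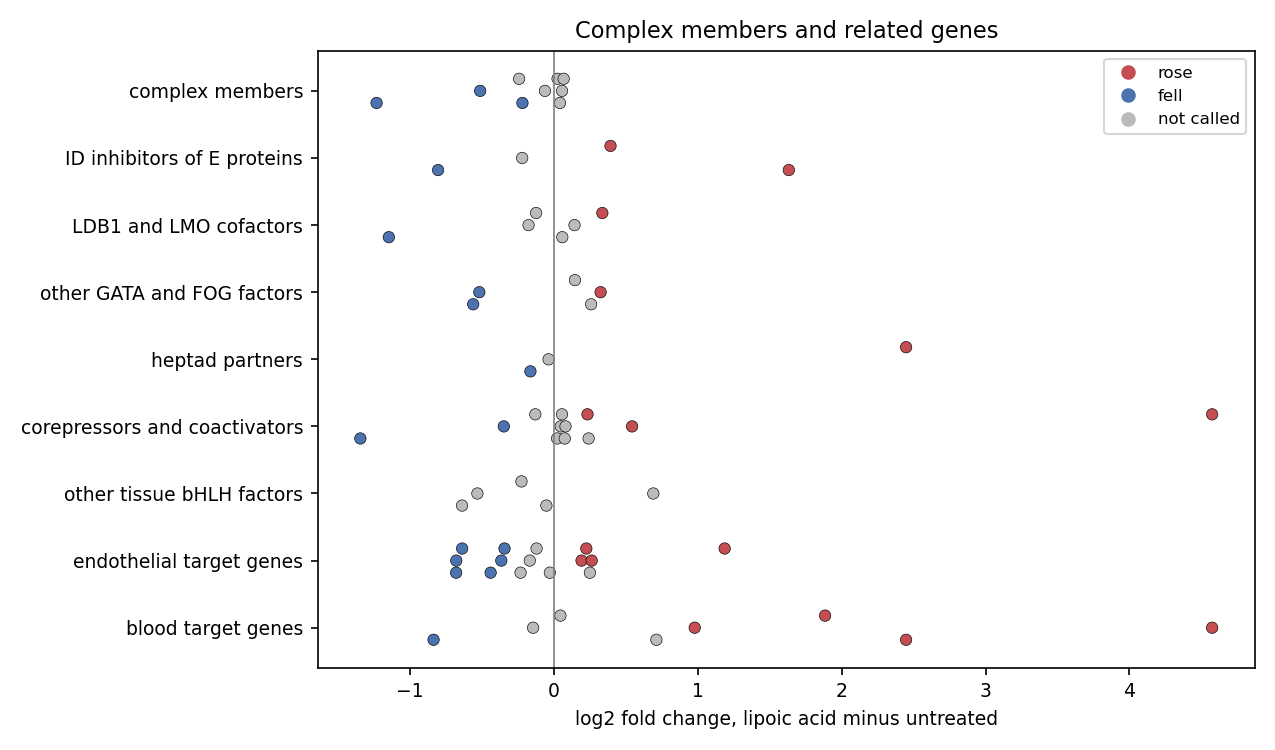
Log2 fold change, lipoic acid minus untreated, of tested genes, with 1 point per gene, coloured by its call. The row of complex members holds the tested members, HHEX included, and the other 8 rows are lists of related genes. Genes with at most 3 counts over a group are left out. Complex members lie between -1.23 and 0.07, whereas blood targets reach 4.57.

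The genes whose levels ran most like those of the 3 leading members were sought among the 9789 tested genes averaging 5 CPM or more, by the root mean square difference of centred log2(CPM + 0.5) over 6 libraries. For TAL1 these were XPNPEP1 (0.0103), PABPC4 (0.0109) and LRRFIP1 (0.0123), an aminopeptidase, a polyA-binding protein and a transcriptional repressor, all uncalled. For LMO2 they were RALB (0.0343), a small GTPase, HEATR3 (0.0361) and the factor gene GATA6 (0.0406), all called lower. For GATA2 they were CXorf38 (0.0420), TMEM106A (0.0493) and FBXW4 (0.0508), none of them called. RALB stood at 507 ± 24.1 and 363 ± 15.2 CPM. The 6 libraries share their 2 groups and their depth, so the values describe these libraries only.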

How the data were processed

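Amplified polyA cDNA of sorted cells was sequenced in 6 libraries. Counts were used as deposited, 1 raw count per gene symbol and library. Per the submitters' processing notes the authors used HISAT2, featureCounts, DESeq2 and the build hg38. Tool versions, the annotation, the strand setting and how reads with more than 1 alignment were counted are not given in the sources used here.

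In R 4.3.3 with edgeR 4.0.16, genes were kept by filterByExpr (13780), scaled by TMM and tested over the whole table with the quasi-likelihood F test, group being the sole term, with Benjamini-Hochberg adjustment and a threshold of 0.05. On simulated data the test recovered most changed genes of at least 5 CPM but few below, and missed the recovery first set for all changed genes; the criterion was then limited to genes of at least 5 CPM, so an uncalled gene below that level may have changed. The SE of a log2 fold change is its size divided by the square root of F. CPM use TMM-scaled totals. No molecular barcodes are named, so intervals cover counting error alone. A floor of 3 counts over a group, even counts halved, was 0.0390 CPM untreated and 0.0532 CPM with lipoic acid.

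Other settings used RLE scaling, scaling to the upper quartile, all genes unfiltered, genes of at least 1 CPM, DESeq2 1.42.0, limma 3.58.1 voom, a replicate block, halved even counts, the 4 libraries of even counts alone, a GC content and length trend removed per library, no mitochondrially encoded genes, and each library left out. The trend's use on ratios, the longest-transcript length and repeats of list counts were added after the data were seen. Positions, exon lengths and GC content are those of GENCODE v29 (GRCh38), where 99.11% of symbols matched 1 gene. The members and the 18 lists were chosen with earlier results of these data known. All members are named, with up to 4 called genes of lowest p per list (all where 5 or fewer were tested) and 3 like genes each for TAL1, LMO2 and GATA2. KAT2B, SSBP2, SSBP3, LDB2, CBFA2T3, ANGPT2, ITGA2B, HAND1, TAL2, GATA1 and GATA2-AS1 were named after their values were seen. Some list genes that were counted are not reported here by name.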

Additional observations from a re-analysis of the deposited data

How the results depend on the processing

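LMO2 was called lower in all 17 other settings. Members called lower numbered 3, against 1 to 4 when a library was left out (1, LMO2 alone, without untreated replicate 1 or lipoic acid replicate 3) and 2 or 3 in the other settings, and 0 members were called higher in any of them. Signs of uncalled members turned for TCF4 in the 4 libraries of even counts (log2 fold change -0.010) and once each library's GC content and length trend was removed (-0.16), for TCF12 with that trend removed (-0.078), and for HHEX in the libraries of even counts (0.070), with the trend removed (0.037) and without untreated replicate 2 (0.053, the leave-outs ranging from -0.11 to 0.053). The trend turned the log2 ratio of TCF4 to TCF3 (-0.12) and of TCF12 to TCF3 (-0.039). In that fit LYL1, GATA2, TCF3 and LDB1, the tested members with the highest GC content of their transcripts, all moved upward. The first 3, which were below 0, came nearer 0, and LDB1, already above 0, went from 0.06 to 0.27. The other 4 ratios kept their direction in each setting run for them. With the replicate number as a block 2 members fell, LMO2 and TCF3, and LYL1 was not called (adjusted p = 0.0604). Same-numbered libraries shared deviations weakly (correlations of 0.0436, 0.0486 and 0.0687), each library correlating best with its own number, a hint from the data and not from the design. LYL1 had 20 to 50 and ZFPM1 6 to 18 counts a library, which limits the precision of both.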

Other observations

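Untreated replicate 2 had the highest HHEX level of the 6 libraries (96.0 CPM). The same library had the highest CDH5 (1010.3 CPM), ID1 (129 CPM) and ID3 (428 CPM), of which CDH5 encodes the gate protein CD144 and the ID genes inhibitors of E proteins. The other untreated libraries had 780 and 802 CPM of CDH5, 114 and 113 CPM of ID1 and 350 and 325 CPM of ID3. TAL1 was lowest in that library (100.1 CPM). Among tissue bHLH genes other than the members, HAND1, of extraembryonic and cardiac mesoderm, had 6.94 ± 1.56 and 4.801 ± 0.580 CPM and was not called (adjusted p = 0.0591), and TAL2, a close relative of TAL1, did not pass the filter, with 10, 12 and 12 counts in untreated and 8, 4 and 6 in lipoic acid libraries (0.368 ± 0.0528 and 0.157 ± 0.0378 CPM, the groups not overlapping; adjusted p = 0.258 without the filter).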
